A study of Mus musculus with 7 samples.

Results

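Glycolysis and the pentose phosphate pathway were followed through 34 genes, taken by symbol from the 24062 genes of the count table. They encode glucose and lactate carriers, the enzymes from hexokinase to lactate dehydrogenase, 7 pentose phosphate enzymes and the gluconeogenic enzyme Fbp1. A further 2 genes, Pdha1 and Pdk1, act on the entry of pyruvate into the citric acid cycle. RNA had been sequenced from whole spleens of mice aged 2 to 3 months: 3 enlarged spleens of the genotype Vav1-iCre;Brca1F22-24/F22-24 (mutants 1 to 3) and 4 C57BL6 spleens labelled Brca1+/+ (wild types 1 to 4). Vav1-iCre expresses Cre recombinase across blood cells, and also in part of the endothelium, and the exons in the name of the Brca1 allele are flanked by its recombination sites. Cre, the altered allele and spleen enlargement are given for the mutants only, and the strain name for the wild types only, so these cannot be told apart. Each library came from a separate spleen, so p-values describe the spread from spleen to spleen.

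Glycolysis splits glucose into pyruvate and yields ATP and NADH. Lactate dehydrogenase regenerates NAD+ by turning pyruvate into lactate, and pyruvate dehydrogenase instead sends pyruvate into the citric acid cycle. The pentose phosphate pathway branches off at glucose 6-phosphate and supplies NADPH and ribose for nucleotides. Dividing lymphocytes are known for high levels of these enzymes, mature red cells live on glycolysis alone, and the factors HIF1 and MYC are known activators of many of the genes.

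HIF1 binds the letters ACGTG within its sites, so the 250 bases before each RefSeq start were searched for ACGTG on both strands. Of the 34 genes, 33 had an entry in the RefSeq promoter table for mouse build GRCm38.p6, and Slc2a3 had none. Among those 33, 12 genes held the letters in at least 1 promoter, which was 15 of their 47 promoters against 16.6% of the 32851 promoters in the table. By the edgeR comparison of the groups, the letters stood before 6 of 17 genes that were higher in mutants (Slc16a1, Pfkm, Pgk1, Pgam1, Pkm and Ldha), 2 of 4 that were lower (Slc2a1 and Pfkfb3) and 4 of 12 that passed in neither direction. The E-box CACGTG, which contains ACGTG and is known to be bound by MYC, stood before 4 genes (Ldha, Pfkfb3, Pfkm and Slc16a1). It was in 4 of the 47 promoters, against 6.02% of all promoters. The letters GCGTG, also a HIF core, stood before 22 genes, in 26 of the 47 promoters, against 28.2% of all promoters. Genes with several listed promoters had more chances of a match than a single promoter has. The 5 promoters shown are of higher genes and lie outside annotated exons (GENCODE M21). Of these, 3 hold ACGTG, and Ldhb and Fbp1, which had the largest fold changes of the set, do not. GCGTG, which is not marked, is in the Ldhb and Pgam1 windows on at least 1 strand. Capitals mark ACGTG and its reverse complement CACGT, and a CACGTG counts as 2 matches because it reads the same on both strands. The windows are Ldha at chr7:46845554-46845803 on the plus strand, Pgk1 at chrX:106186850-106187099 on the plus strand, Pgam1 at chr19:41911621-41911870 on the plus strand, Ldhb at chr6:142507958-142508207 on the minus strand and Fbp1 at chr13:62888283-62888532 on the minus strand, each written 5′ to 3′.
Ldha: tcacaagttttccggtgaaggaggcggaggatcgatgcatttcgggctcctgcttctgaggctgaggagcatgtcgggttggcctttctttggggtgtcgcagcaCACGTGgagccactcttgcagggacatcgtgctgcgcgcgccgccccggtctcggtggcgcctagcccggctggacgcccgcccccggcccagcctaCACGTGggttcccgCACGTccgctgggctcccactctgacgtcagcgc
Pgk1: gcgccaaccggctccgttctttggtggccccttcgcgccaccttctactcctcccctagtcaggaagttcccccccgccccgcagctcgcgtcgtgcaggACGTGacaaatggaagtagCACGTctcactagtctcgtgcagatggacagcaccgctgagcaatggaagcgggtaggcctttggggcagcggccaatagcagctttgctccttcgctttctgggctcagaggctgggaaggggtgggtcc
Pgam1: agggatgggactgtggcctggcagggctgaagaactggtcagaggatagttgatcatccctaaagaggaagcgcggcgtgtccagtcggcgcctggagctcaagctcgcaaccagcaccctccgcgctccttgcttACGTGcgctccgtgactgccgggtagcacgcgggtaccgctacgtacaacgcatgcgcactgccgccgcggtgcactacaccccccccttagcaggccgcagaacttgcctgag
Ldhb: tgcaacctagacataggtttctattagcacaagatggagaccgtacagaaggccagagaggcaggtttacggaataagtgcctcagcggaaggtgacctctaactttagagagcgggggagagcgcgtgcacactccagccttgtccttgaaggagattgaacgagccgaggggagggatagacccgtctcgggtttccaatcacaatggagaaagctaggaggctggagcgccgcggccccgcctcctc
Fbp1: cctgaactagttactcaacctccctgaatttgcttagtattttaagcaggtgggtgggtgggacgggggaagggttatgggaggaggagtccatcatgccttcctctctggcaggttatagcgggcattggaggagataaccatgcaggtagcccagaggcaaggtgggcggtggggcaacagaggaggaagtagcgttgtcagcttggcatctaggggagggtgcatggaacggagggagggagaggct
The Ldha window held 5 matches of ACGTG, that of Pgk1 2, that of Pgam1 1, and those of Ldhb and Fbp1 none. The other listed Ldha promoter, at chr7:46846832-46847081, is not shown and held none. A match of letters is a description of the sequence and was not tested as a binding site.

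Levels are CPM, the reads of a gene relative to a library size scaled by TMM, and changes are log2 fold changes of mutant over wild type with their standard error (SE). A gene was called higher or lower at a Benjamini-Hochberg adjusted p under 0.05 in edgeR's quasi-likelihood test over 15188 genes. All 34 genes entered the test. The filter on low counts was passed in at least 3 libraries of each group by 33 of them, while Fbp1 passed through the mutant libraries alone, the group where it was high, so its call supports nothing and its values are a description. Counts over the 34 genes include Fbp1 unless said otherwise, and where it was called it is among the higher genes.

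In mutant spleens 17 of the 34 genes were higher, 4 were lower and 13 did not pass; without Fbp1, 16 of 33 were higher. Among all tested genes 28.5% were higher and 28.9% were lower. The higher genes were Slc16a1, Pfkl, Pfkm, Tpi1, Gapdh, Pgk1, Pgam1, Eno1, Pkm, Ldha, Ldhb, Pdha1, Pgls, Pgd, Rpe, Tkt and Fbp1, of which 13 changed by at least 2-fold. The lower genes were Slc2a1, Pfkfb3, Aldoc and Eno2, each by at least 2-fold. The median log2 fold change was 0.71 over the 34 genes, 0.67 without Fbp1 and -0.02 over all tested genes. With no scaling beyond library size the median of all genes moved to -0.26 and that of the 34 genes to 0.46, and 68.4% of the 34 genes' calls were higher instead of 81% (38.1% instead of 49.7% over all genes). Without wild types 1 and 2, whose red cell marker level was high, 11 of the 34 genes passed as higher and 2 as lower, with 3 mutants against 2 wild types, and in that fit 18.9% of all genes passed as higher and 19.5% as lower.

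Group ranges did not overlap for 18 genes, Fbp1 among them, with mutants above (29.2% of all genes). They did not overlap for 6 with mutants below (32.6% of all genes), and they overlapped for 10. The ratio of the highest to the lowest spleen was larger among the mutants than among the wild types for 30 of the 34 genes. In the wild types that ratio was under 1.5 for 24 genes. Mutant 3 had the highest mutant level for 23 of the 34 genes and mutant 1 the lowest for 23. Of the 17 higher genes, mutant 3 was the highest mutant for 14 and mutant 1 the lowest for 15. Hk3 spread 16.6-fold and Fbp1 160-fold across the mutants.

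**Figure D1:**
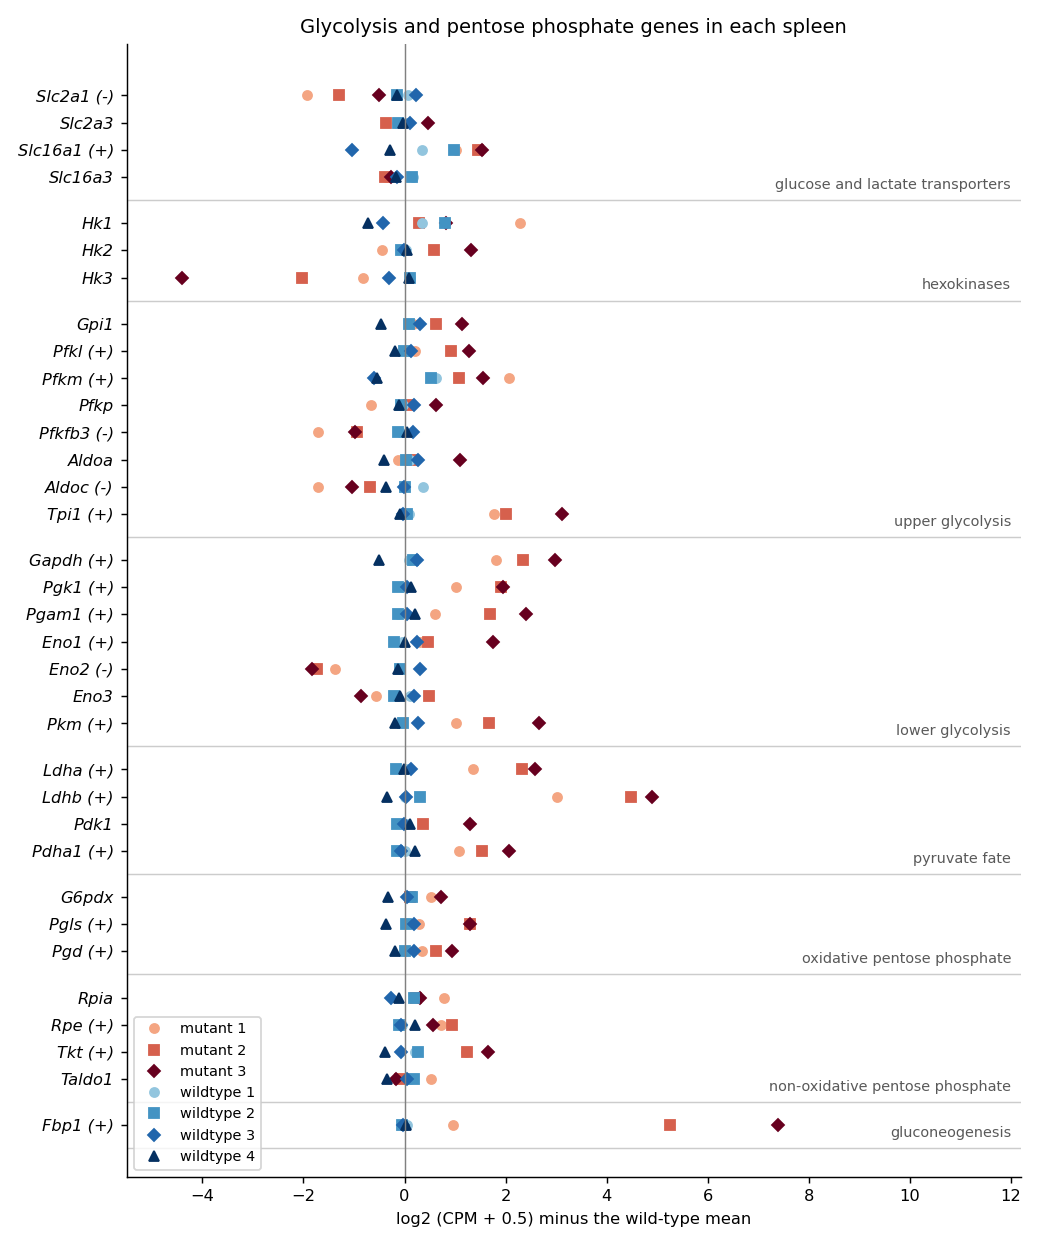
Level of each of the 34 genes in each spleen, as log2 of CPM plus 0.5 minus the wild-type mean (horizontal axis), with one symbol per spleen and genes grouped by role. Plus and minus signs after a name mark the 17 genes called higher and the 4 called lower; the mutant symbols for Ldhb and Tpi1 lie to the right of all wild types, and those for Hk3 and Eno2 to the left.

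Library depth ran from 26889712 to 63612532 counted reads. Brca1 transcripts did not check the genotype, as 42.7 to 67.6 CPM in mutants and 15.7 to 72.8 in wild types overlapped (log2 fold change 0.44, SE 0.51, edgeR adjusted p = 0.49), and counts over the whole gene can include transcripts that lack the removed exons. Mature B cell markers, which a spleen is known to hold in quantity, summed to 43.1 to 243 CPM in mutants and 4397 to 5857 in wild types, with 10 of 10 lower. Immature T cell markers summed to 2929 to 5788 CPM against 381 to 478, with 9 of 10 higher and 1 lower. Genes of the S, G2 and M phases summed to 7956 to 9007 CPM against 1148 to 5016, with 13 of 16 higher. Monocyte and macrophage markers summed to 147 to 644 CPM against 1947 to 2504 (9 of 10 lower), and platelet markers to 14.7 to 99.8 against 224 to 302 (6 of 8 lower). Red pulp macrophage markers summed to 302 to 1724 against 1890 to 2261 (2 of 6 lower, 33.3%). Neutrophil markers summed to 21.8 to 663 against 682 to 1757 (3 of 10 lower, 30%). Among all tested genes 28.5% were higher and 28.9% lower, so the shares of these last 2 lists were near that of all genes. Erythroid markers overlapped between groups, with none of 11 called. Skeletal muscle markers stayed at 8.82 to 36.4 CPM in mutants and 6.26 to 13.0 in wild types. No marker on these lists had zero counts in all mutants. In whole tissue, fewer cells of a type and less RNA per cell cannot be told apart, and the part of these cell markers in the changes of the 34 genes was not tested.

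Glucose enters blood cells through carriers that include Slc2a1 (GLUT1) and Slc2a3 (GLUT3). Slc2a1 was at 12.1, 19.1 and 33.5 CPM in mutants 1 to 3 and at 49.6, 42.9, 55.9 and 43.0 in wild types 1 to 4. Every mutant lay below every wild type, with a log2 difference of -1.15 (SE 0.33, edgeR adjusted p = 0.0188), although the call was lost without mutant 2 (-1.09, adjusted p = 0.0599), without wild types 1 and 2 (-1.20, adjusted p = 0.0732) and without these and mutant 1 (-0.90, adjusted p = 0.064). Slc2a3 was at 53.6, 45.6 and 81.8 CPM against 60.7, 54.3, 63.8 and 58.2, with overlapping ranges and a log2 difference of 0.03 (SE 0.21, edgeR adjusted p = 0.926) whose sign depended on the scaling and the libraries used. The level of both carriers together, summed per kilobase of exon, was 0.737 times the wild-type mean in mutants.

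Monocarboxylate carriers move lactate and pyruvate over the cell membrane, Slc16a1 (MCT1) in most cells and Slc16a3 (MCT4) as the exporter of strongly glycolytic cells. Slc16a1 measured 256, 344 and 365 CPM in the mutants and 159, 248, 60.7 and 103 in the wild types. The lowest mutant stood just above wild type 2, and the log2 fold change of 1.18 (SE 0.43, edgeR adjusted p = 0.0471) lost its call without mutant 2 (1.09, adjusted p = 0.132), mutant 3 (1.07, adjusted p = 0.123), wild type 1 (1.23, adjusted p = 0.0812), wild type 3 (0.91, adjusted p = 0.0603) or wild type 4 (1.04, adjusted p = 0.115), and with library size alone (0.96, adjusted p = 0.0618). Without wild types 1 and 2 it was 1.98 (SE 0.32, adjusted p = 0.00808). Slc16a3 was low in all libraries, at 7.30 to 7.91 CPM in mutants and 8.53 to 10.9 in wild types, and did not pass although the ranges did not overlap (log2 fold change -0.37, SE 0.20, adjusted p = 0.140).

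None of the 3 hexokinases, which trap glucose by phosphorylation, passed the test. Hk1, the form of most tissues and of red cells, was at 702, 175 and 255 CPM in mutants 1 to 3 and at 184, 251, 108 and 86.8 in wild types 1 to 4 (log2 fold change 1.26, SE 0.54, edgeR adjusted p = 0.0773). Mutant 1 carried much of that difference: without it the value was 0.53 (SE 0.44, adjusted p = 0.324), while without wild type 2 it passed (1.58, adjusted p = 0.0494). An overlapping antisense gene, Hk1os, makes the Hk1 count uncertain, since the sources used here do not give whether counting used strand.

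Hk2, the form that is induced in growing cells, measured 14.0, 29.2 and 48.9 CPM in the mutants against 18.4 to 20 in the wild types. Mutant 1 lay below all wild types and mutants 2 and 3 above them (log2 fold change 0.67, SE 0.36, adjusted p = 0.149), and without mutant 1 Hk2 passed (1.09, adjusted p = 0.00331). Hk3, a form known from myeloid cells, was at 19.9, 8.32 and 1.2 CPM in mutants 1 to 3 against 38.2, 38.2, 28.5 and 37.9 in the wild types. All mutants were below all wild types, yet the spread between mutants left the log2 fold change of -1.86 (SE 0.74) at adjusted p = 0.0637 in edgeR, and leaving out mutant 1 (-2.81, adjusted p = 0.0146) or mutant 3 (-1.34, adjusted p = 0.018) brought it past the threshold, as did DESeq2 (-1.84, adjusted p = 0.0125) and limma-voom (-2.46, adjusted p = 0.0187). The monocyte and macrophage marker sum took the same order across mutants, 644, 429 and 147 CPM, and its part in the Hk3 level was not tested.

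Between glucose 6-phosphate and the triose phosphates the genes split. Gpi1, which makes fructose 6-phosphate, was at 376, 515 and 738 CPM in the mutants against 358, 355, 415 and 242, overlapping through mutant 1 alone (log2 fold change 0.66, SE 0.27, adjusted p = 0.0662, and 0.95 with adjusted p = 0.0115 without mutant 1). The liver-type phosphofructokinase Pfkl, a subunit of the main control enzyme of the pathway, was higher, with 62.3, 103 and 131 CPM against 47.0 to 58.8 (log2 fold change 0.87, SE 0.24, adjusted p = 0.0162), and lost its call without mutant 2 (0.81, adjusted p = 0.0532) or mutant 3 (0.62, adjusted p = 0.0528). The muscle-type subunit Pfkm was also higher, at 98.1, 48.9 and 67.9 CPM against 35.5, 33.4, 15 and 15.5 (log2 fold change 1.53, SE 0.39, adjusted p = 0.0114). Pfkm was the only one of the 17 higher genes whose highest mutant was mutant 1. The platelet-type subunit Pfkp, at 43.8, 74.2 and 107 CPM against 64.9 to 79.7, had overlapping groups (log2 fold change 0.10, SE 0.28, adjusted p = 0.768), and its sign turned with library size alone, with limma-voom and without mutant 3. It passed as higher without mutant 1 (0.46, adjusted p = 0.044).

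Pfkfb3 makes fructose 2,6-bisphosphate, a strong activator of phosphofructokinase, and was lower. It was at 29.3, 49.9 and 49.0 CPM in the mutants and 90.6, 88.3, 109 and 99.6 in the wild types, so that every mutant had clearly less than every wild type. The log2 fold change was -1.18 (SE 0.21, edgeR adjusted p = 0.00246), and it remained called under all 17 alternative settings and exclusions.

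The aldolases cut fructose 1,6-bisphosphate into 2 triose phosphates. Aldoa, which made up 99.0% ± 0.166 (SD, n = 4) of wild-type aldolase transcripts per kilobase, was at 280, 338 and 650 CPM in mutants and 231 to 365 in wild types, with mutant 3 alone above all wild types (log2 fold change 0.45, SE 0.31, adjusted p = 0.238). Without mutant 1 it passed as higher (0.76, adjusted p = 0.0497). Aldoc, the brain-type form, was scarce and lower, with 0.701, 1.94 and 1.4 CPM against 4.56, 3.44, 3.39 and 2.54 (log2 fold change -1.38, SE 0.40, adjusted p = 0.0208). That call was lost in 4 of 17 alternatives. These were the fits without wild type 1 (-1.22, adjusted p = 0.0566), without wild types 1 and 2, without these and mutant 1, and with the replicate numbers as a block.

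Tpi1 was higher, and of the 7 genes from Gapdh to Pkm 5 were higher, Eno2 was lower and Eno3 did not pass. Tpi1, which interconverts the 2 triose phosphates (chromosome 6, 124810592 to 124814296, mm10), was at 300, 354 and 765 CPM in mutants and 93.2, 90.6, 86.4 and 82.1 in wild types. Each mutant held over 3 times the level of the highest wild type, and the fitted difference was 5.37-fold (log2 fold change 2.42, SE 0.32, edgeR adjusted p = 6.94e-04). Gapdh, the dehydrogenase that yields NADH and a gene often used as a reference for RNA levels, was at 787, 1140 and 1769 CPM against 239, 252, 266 and 159. The difference was 5.39-fold (log2 fold change 2.43, SE 0.31, adjusted p = 6.04e-04). Gapdh has 77 near-identical copies in the annotation (at least 95% identity over at least 300 bases), so its count is uncertain where reads fit several of them.

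Pgk1, the first enzyme of the pathway to make ATP, rose to 282, 523 and 534 CPM from 135, 127, 143 and 151 (log2 fold change 1.68, SE 0.23, edgeR adjusted p = 8.60e-04). Pgam1, which moves the phosphate of phosphoglycerate, was at 124, 266 and 437 CPM against 75.4, 75.2, 84.7 and 94.3 (1.74, SE 0.37, adjusted p = 0.00519). Mutant 1 was the lowest mutant for both genes and still above every wild type, and Pgam1 lost its call without wild types 1 and 2 (1.62, adjusted p = 0.0518). Pkm, whose pyruvate kinase makes the last ATP, measured 768, 1211 and 2407 CPM against 363, 375, 460 and 336, a 3.81-fold difference (log2 fold change 1.93, SE 0.36, adjusted p = 0.00303). The counts are per gene and do not separate the M1 and M2 splice forms of Pkm.

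The enolases, which form phosphoenolpyruvate, went separate ways. Eno1, the form of most tissues, was at 147, 165 and 399 CPM in mutants and 115, 103, 142 and 119 in wild types (log2 fold change 0.99, SE 0.35, edgeR adjusted p = 0.0403). Mutants 1 and 2 stood barely above wild type 3, and without mutant 3 the value fell to 0.39 (adjusted p = 0.0745). The call was also lost without wild type 1 (0.96, adjusted p = 0.0877), wild type 2 (0.92, adjusted p = 0.082), wild type 3 (1.07, adjusted p = 0.0601) or wild type 4 (0.97, adjusted p = 0.0872). A second enolase gene, Eno1b, had 1.0004 to 1.0056 times the Eno1 count in every library, so the 2 genes shared nearly all reads.

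Eno2, the neuronal form, was lower, at 0.949, 0.634 and 0.554 CPM in mutants against 3.00, 3.04, 4.14 and 2.94 in wild types. Every mutant lay well below every wild type, and the log2 fold change was -2.19 (SE 0.32, adjusted p = 0.00103). Eno3, the muscle form, overlapped at 16.9, 35.7 and 13.7 CPM against 21.9 to 28.6 (-0.20, SE 0.33, adjusted p = 0.628), was lower without mutant 2 (-0.75, adjusted p = 0.0191) and turned positive without mutant 1 (0.06) or mutant 3 (0.07).

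Summed per kilobase of exon, the steps after the triose phosphates had the larger ratios of mutant to wild-type mean. They were 5.37 for triose phosphate isomerase, 5.39 for Gapdh, 3.21 for Pgk1, 3.35 for Pgam1, 3.81 for Pkm and 5.11 for lactate dehydrogenase. Ratios for the earlier steps were 0.737 for glucose uptake (Slc2a1 and Slc2a3 alone), 1.85 for hexokinase, 1.58 for Gpi1, 1.74 for phosphofructokinase and 1.36 for aldolase. The hexokinase ratio was 1.13 without mutant 1, and the aldolase ratio was 0.996 without mutant 3. Enolase, at 1.67, stood apart from its neighbours among the later steps. The difference between earlier and later steps was not tested, and the immature T cell and the S, G2 and M phase marker sums were higher in the same mutants.

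**Figure D2:**
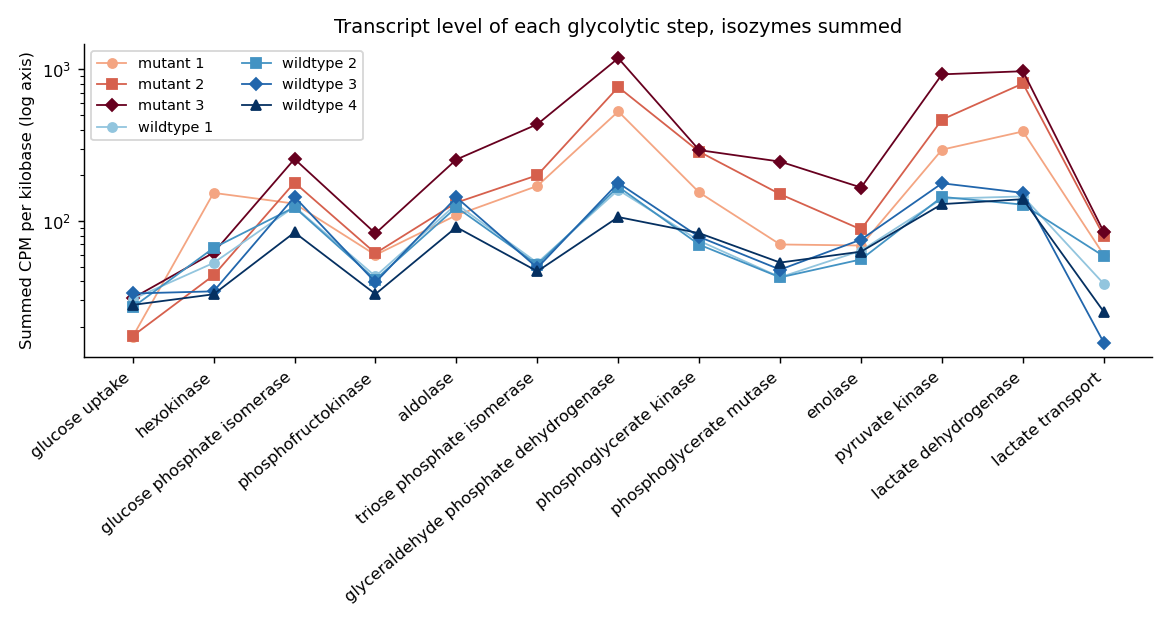
Summed transcript level of each glycolytic step per spleen, in CPM per kilobase of exon on a log axis, in the order of the pathway. Points are single spleens, joined by a line per spleen. The mutant points lie above all wild-type points at phosphofructokinase, from triose phosphate isomerase to phosphoglycerate mutase, and from pyruvate kinase to lactate transport, and intermix with them at the other steps.

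Pyruvate is turned into lactate by tetramers of Ldha and Ldhb subunits. Ldha, the muscle-type subunit (chromosome 7, 46845804 to 46855627, mm10), was at 654, 1294 and 1532 CPM in mutants against 265, 230, 281 and 255, a 4.5-fold difference (log2 fold change 2.17, SE 0.28, edgeR adjusted p = 6.44e-04). Ldhb, the heart-type subunit (chromosome 6, 142490249 to 142507943), was at 57.6, 160 and 213 CPM against 6.75, 8.40, 6.84 and 5.12. The difference was 21.2-fold (log2 fold change 4.41, SE 0.44, adjusted p = 3.08e-04), the highest among the 33 genes that passed the filter in both groups. Ldhb took 14.5% ± 2.81 (SD, n = 3) of the lactate dehydrogenase transcripts per kilobase in mutants and 3.72% ± 0.937 (SD, n = 4) in wild types, so Ldha remained the main form in every library.

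Pdha1 encodes the catalytic subunit of pyruvate dehydrogenase, and Pdk1 the kinase that switches this enzyme off. Pdha1 was higher, with 228, 314 and 455 CPM against 108, 97.9, 103 and 125 (log2 fold change 1.61, SE 0.24, adjusted p = 0.00107). Pdk1 did not pass, at 84.1, 110 and 208 CPM against 76.6 to 91.7 (0.65, SE 0.29, adjusted p = 0.0852). Mutant 1 lay among the wild types and mutants 2 and 3 above them, and without mutant 1 Pdk1 passed (0.98, adjusted p = 0.0097).

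All 3 enzymes of the oxidative pentose phosphate branch, which yields NADPH, had positive log2 fold changes, and 2 passed. G6pdx, the entry enzyme, was at 94.8, 70.4 and 109 CPM in mutants and 71.0, 73.0, 68.0 and 52.3 in wild types, overlapping through mutant 2 (log2 fold change 0.47, SE 0.19, edgeR adjusted p = 0.0649, and 0.60 with adjusted p = 0.0348 without that spleen). Pgls, the lactonase, was higher, at 43.1, 87.2 and 87.1 CPM against 39.2, 35.8, 39.9 and 26.9 (1.03, SE 0.27, adjusted p = 0.0128), with mutant 1 close to the wild types and the call lost without mutant 2 (0.85, adjusted p = 0.0549). Pgd, the second NADPH-yielding enzyme, was higher, at 139, 168 and 210 CPM against 109, 109, 123 and 95.2 (0.66, SE 0.17, adjusted p = 0.0126), with library size alone 0.41 (adjusted p = 0.0607).

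The non-oxidative branch shuffles sugar phosphates between ribose 5-phosphate and glycolysis. Tkt, the transketolase, was at 637, 641 and 856 CPM against 315, 328, 260 and 209, and was the member of the branch with the largest change (log2 fold change 1.35, SE 0.21, edgeR adjusted p = 0.00123). Rpe, an epimerase, was higher, with 67.5, 78.5 and 60.4 CPM against 39.1, 37.8, 38.8 and 47.1 (0.76, SE 0.15, adjusted p = 0.00343, and 0.51 with adjusted p = 0.0546 with library size alone). Both had group ranges well apart. Rpia, the ribose phosphate isomerase, was at 94.4, 64.0 and 67.4 CPM against 62.5, 62.5, 45.1 and 50.4, with groups barely apart and no call (0.45, SE 0.19, adjusted p = 0.0776). Taldo1, the transaldolase, was at 333, 219 and 206 CPM against 250, 266, 239 and 183, overlapping (0.11, SE 0.22, adjusted p = 0.7), and its sign turned with library size alone and without mutant 1 or wild type 4.

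Fbp1 encodes fructose 1,6-bisphosphatase, which runs the phosphofructokinase step backwards in liver and kidney. It had 28, 583 and 2836 counts in mutants 1 to 3 and 2, 1, 2 and 5 in the wild types, which is 0.577, 20.6 and 92.3 CPM against 0.0370 to 0.0707. All mutants lay above all wild types, but the 3 mutants spanned 160-fold. The fitted log2 fold change was 9.32 (SE 1.63), and the pooled CPM ratio was 565 with a 95% exact binomial interval of 307 to 1179 that covers counting error only. The log2 fold change was 7.52 (SE 1.31) without mutant 3, 9.96 (SE 0.71) without mutant 1 and 6.89 with limma-voom, which did not call the gene.

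Ratios between isozyme genes, taken within each library, remove library scaling and gene length from the comparison. Of 11 such ratios 8 did not overlap between the groups, each at a two-sided exact permutation p = 0.0571, the smallest that 3 against 4 spleens allow, and 0.0786 after Benjamini-Hochberg adjustment over the 11. None could therefore pass 0.05. Taken singly, 29.2% of all tested genes had groups apart with mutants above, and 32.6% with mutants below. The share among ratios of other gene pairs was not computed, so the count of 8 has no background to be read against. Ldhb to Ldha was higher in each mutant, with log2 ratios of -3.51, -3.01 and -2.85 against -5.30, -4.78, -5.36 and -5.64, a difference of 2.14. Eno2 to Eno1 was lower by a log2 difference of -3.07 and Aldoc to Aldoa by -1.83, each with the scarce form lower in every mutant.

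Hk3 to Hk1 differed by -3.73 and Hk2 to Hk3 by 3.09 on the log2 scale. Per kilobase, Hk1 took 87.4% ± 6.30 (SD, n = 3) of hexokinase transcripts in mutants and 67.4% ± 9.95 (SD, n = 4) in wild types, and Hk3 took 3.38% ± 2.58 against 24.5% ± 7.35. Pfkp to Pfkl differed by -0.79, with log2 ratios between -0.51 and -0.28 in mutants and between 0.25 and 0.47 in wild types, a narrow range within each group. Slc2a3 to Slc2a1 differed by 1.25 and Slc16a3 to Slc16a1 by -1.71. The ratios Hk2 to Hk1 (-0.64, exact permutation p = 0.629), Pfkm to Pfkl (0.78, p = 0.343) and Eno3 to Eno1 (-1.16, p = 0.229) overlapped between the groups.

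**Figure D3:**
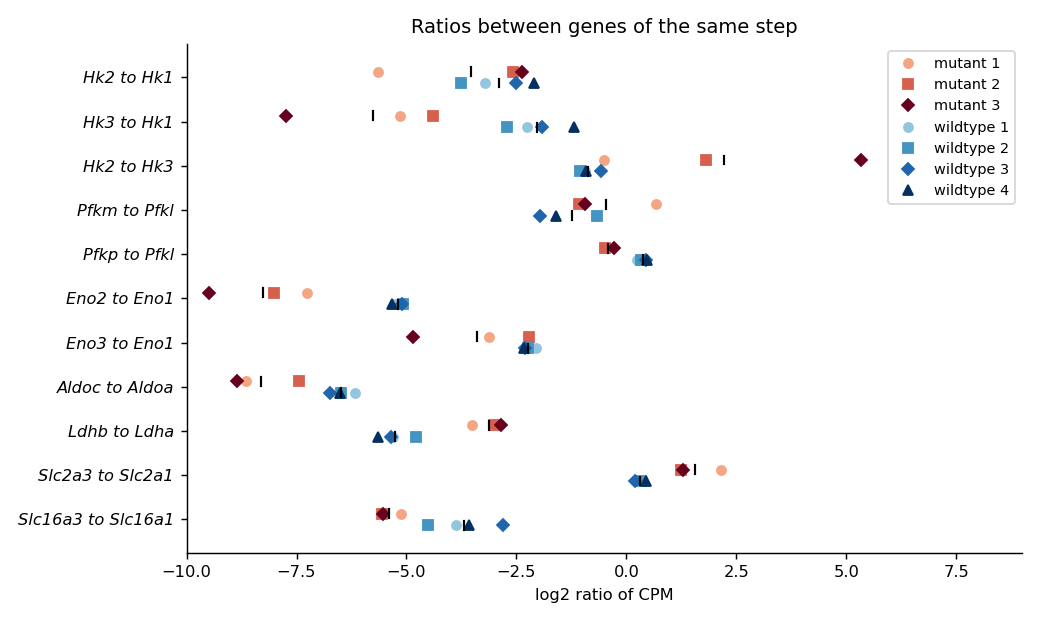
Log2 ratio of the CPM of isozyme genes in each spleen (horizontal axis) for the 11 pairs listed on the vertical axis, with one symbol per spleen and a short black line at each group mean. The groups lie apart for 8 pairs, such as Ldhb to Ldha with mutants between -3.51 and -2.85 and wild types between -5.64 and -4.78, and overlap for Hk2 to Hk1, Pfkm to Pfkl and Eno3 to Eno1.

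Erythroid marker levels varied between spleens of the same group. Erythroid markers summed to 22088, 4209 and 5821 CPM in mutants 1 to 3 and to 17399, 42940, 3064 and 3316 in wild types 1 to 4, so mutant 1 and wild types 1 and 2 were high. The S, G2 and M phase sum was also higher in wild types 1 and 2, at 3278 and 5016 CPM, than in wild types 3 and 4, at 1148 and 1455 CPM. Wild types 1 and 2 were both above wild types 3 and 4 for 11 of the 34 genes (21.1% of all tested genes), and both below for 4, Pfkfb3, Pgk1, Pgam1 and Eno1 (25.1% of all tested genes). Among the 11 were Hk1 (184 and 251 CPM against 108 and 86.8), Pfkm (35.5 and 33.4 against 15 and 15.5) and Slc16a1 (159 and 248 against 60.7 and 103). In mutant 1, Hk1 and Pfkm had the highest level of all 7 spleens, while Slc16a1 was lower there than in mutants 2 and 3. Ldha did not follow this order, with 265 and 230 CPM against 281 and 255.

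With the erythroid level as a covariate, 19 of the 34 genes were higher and 4 lower, against 30% and 29.2% of all genes in the same fit. Hk1 then passed (log2 fold change 1.25, SE 0.25, edgeR adjusted p = 0.00474), as it did without mutant 1 and wild types 1 and 2 (1.15, SE 0.24, adjusted p = 0.0144). Pfkm stayed called at 1.65 (SE 0.17, adjusted p = 5.91e-04) with the covariate and was 2.23 (SE 0.35, adjusted p = 0.00776) without wild types 1 and 2. Leaving out all 3 of the spleens with high erythroid level gave 17 higher and 3 lower genes, against 26.1% and 26.6% of all genes in that fit. Beyond these values, the part of red cell content and of the cell cycle genes was not tested.

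**Figure D4:**
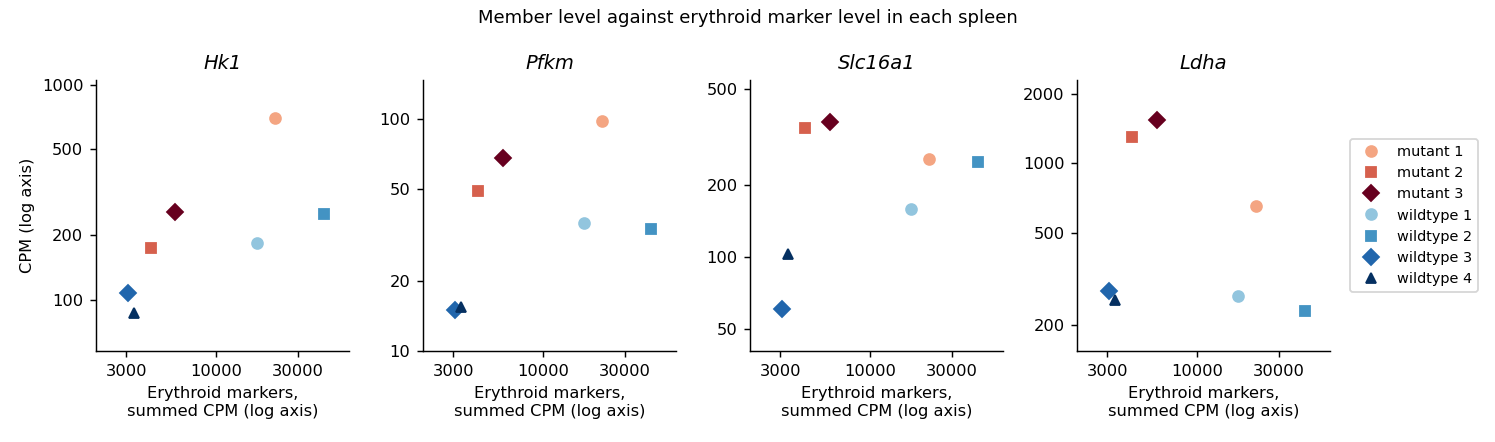
CPM of Hk1, Pfkm, Slc16a1 and Ldha (vertical log axes) against the summed CPM of 11 erythroid marker genes (horizontal log axes), one symbol per spleen. For Hk1, Pfkm and Slc16a1 wild types 1 and 2 lie above wild types 3 and 4, whereas for Ldha the 4 wild types lie between 230 and 281 CPM and the mutants between 654 and 1532.

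Around the 34 genes, 106 further genes of 8 neighbouring lists were tested. Of these, 43 (40.6%) were higher and 19 (17.9%) lower, with a median log2 fold change of 0.38. Among all tested genes 28.5% were higher and 28.9% lower, the shares beside which each list is to be read. The citric acid cycle list had 17 of 18 genes higher, none lower and a median of 1.01. Among them were Idh3a, a subunit of isocitrate dehydrogenase (log2 fold change 2.09, SE 0.16), the succinate dehydrogenase subunit Sdhb (1.48, SE 0.15) and the fumarase Fh1 (1.24, SE 0.13). Whether this list differs from the 34 genes was not tested. Among 13 genes of pyruvate dehydrogenase, its regulators and the pyruvate carriers 6 were higher and 2 lower (median 0.43), and Dld (1.11, SE 0.11), Dlat (1.33, SE 0.17), Pdhx (1.21, SE 0.15) and Pdhb (1.12, SE 0.14), all of them parts of the complex that Pdha1 belongs to, were higher.

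Other pentose phosphate and ribose genes were higher in 5 of 7 cases (71.4%, against 28.5% of all genes) and lower in none (median 1.06). Prps1 (1.61, SE 0.16) and Prps2 (1.86, SE 0.33), which make the ribose donor of nucleotide synthesis, were among them, with Dera (1.60, SE 0.17) and the ribokinase Rbks (1.06, SE 0.23), both of which handle ribose or deoxyribose. Of 15 other glycolysis genes 4 were higher and 2 lower (median 0.26), and 1 of the 4 was Eno1b, which repeats the reads of Eno1. These shares, 26.7% higher and 13.3% lower, were both below the 28.5% and 28.9% of all tested genes. Slc2a6, a lysosomal hexose carrier, was lower at 0.13 to 1.15 CPM against 9.55 to 12.9 (log2 fold change -3.97, SE 0.63), as was the pyruvate carrier Slc16a7 (-2.78, SE 0.67), while Ldhd, the dehydrogenase of D-lactate, was higher (2.23, SE 0.42). Pgam2, the muscle form of the mutase, was called higher (4.39, SE 1.29, edgeR adjusted p = 0.0208) though its groups overlapped. Pgam2 passed the filter on low counts only through the mutants, where it was high, and Slc2a6 and Slc16a7 only through the wild types, where they were high.

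Of 13 genes of glycogen metabolism and glucose release 2 were higher and 3 lower (median -0.23). That is 15.4% and 23.1%, against 28.5% and 28.9% of all tested genes. The glycogen phosphorylases Pygl (-1.85, SE 0.54) and Pygb (-0.65, SE 0.14) were lower, and Pgm1 was higher (0.82, SE 0.25). Gys2, the liver glycogen synthase, had 17, 24 and 63 counts in mutants against 0, 0, 0 and 9 in wild types, and is the other of the 2 higher genes, but it entered the test only through the mutants, where it was high. Of 11 glutathione and thioredoxin genes, whose enzymes spend NADPH or keep glutathione supplied, 4 were higher and 2 lower (median 0.75), or 36.4% and 18.2%. The log2 fold change was 1.69 (SE 0.16) for Gss, 1.19 (SE 0.12) for Txnrd1, 1.5 (SE 0.25) for Txn1 and -2.77 (SE 0.44) for the cystine carrier Slc7a11.

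Regulators of glycolytic genes included 4 higher and 7 lower of 15 tested (median -0.27), of which 1 lower gene passed the filter on low counts only through the wild types. That is 26.7% higher and 46.7% lower, against 28.5% and 28.9% of all tested genes. Myc, an activator of many glycolytic genes, was at 283, 455 and 470 CPM in mutants and 86.7, 99.5, 102 and 73.7 in wild types (log2 fold change 2.15, SE 0.22, edgeR adjusted p = 3.33e-04). Egln3, an oxygen sensor that marks HIF for breakdown and is itself induced by HIF, was at 33.8, 111 and 148 CPM against 2.19 to 4.20 (4.91, SE 0.51, adjusted p = 3.47e-04). Mlxip, a glucose-sensing factor, was lower (-1.65, SE 0.19), and so was Arrdc4, a known target of that factor (-3.41, SE 0.43). Each of these 4 genes had groups that did not overlap.

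Of 14 hypoxia targets outside glycolysis 1 was higher and 3 were lower (median -0.14). These shares, 7.14% and 21.4%, were both below the 28.5% and 28.9% of all tested genes. Vegfa, the vascular growth factor, was at 22.8 to 29.2 CPM in mutants and 56.4 to 82.9 in wild types (log2 fold change -1.35, SE 0.19, edgeR adjusted p = 9.90e-04). Bhlhe40 (-1.51, SE 0.27) and the mitophagy receptor Bnip3 (-1.19, SE 0.32) were lower too, and P4ha2, a collagen hydroxylase, was called higher (0.84, SE 0.29) with overlapping groups. The count of higher hypoxia targets was 0 without mutant 3 or without wild type 1, 2 or 4, and 3 without mutant 1, and 5 were lower without mutant 3. Counts in the glycogen and other glycolysis lists moved as much when single libraries were left out. The 4 higher other glycolysis genes fell to 1 without wild type 1 or wild type 3. Shares over all genes in these fits are not given here, so the moves have no background to be read against.

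**Figure D5:**
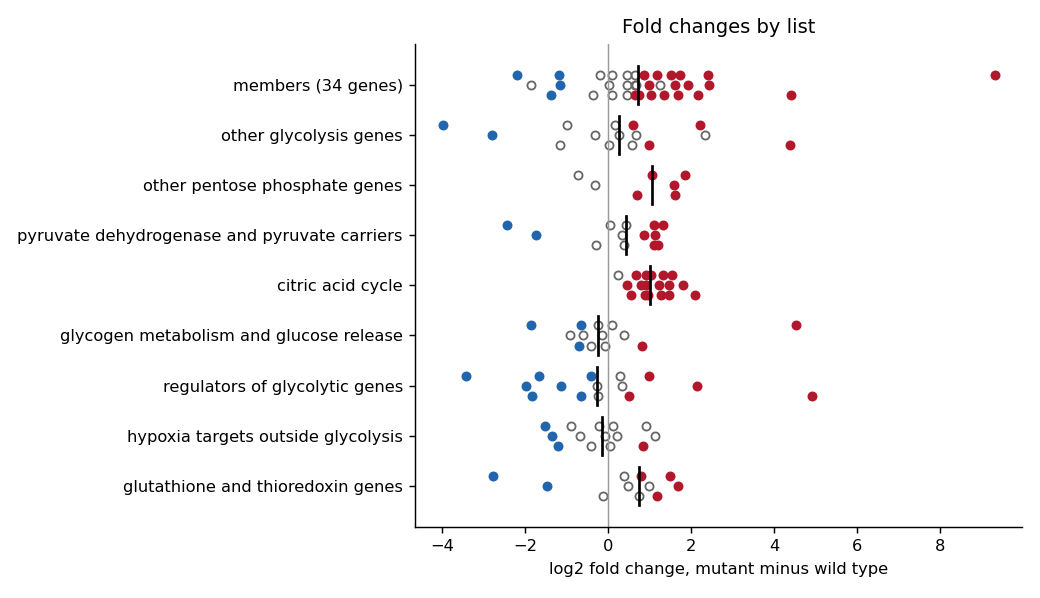
Log2 fold change of mutant over wild type (horizontal axis) of each tested gene in the 34 genes (top row) and in the 8 neighbouring lists, with filled red points for genes called higher, filled blue points for genes called lower, open points for the rest and a black line at each median. The median was 0.71 for the 34 genes and 1.01 for the citric acid cycle genes, of which 17 of 18 points are red.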

How the data were processed

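RNA-seq libraries from 3 mutant and 4 wild-type whole spleens were analysed. Build mm10 was used with TopHat2 2.0.12, Subread 1.4.6 (featureCounts), edgeR and bcl2fastq 2.17.1.14, per the submitters' processing notes. Not given in the sources used here were settings, strand use and the treatment of reads that fit several places. Raw read counts for every gene, as deposited by the authors, carry the tests, and their deposited CPM values served an alternative.

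Samples were grouped by their labels. Counts were fitted in R 4.3.3 with edgeR 4.0.16 (filterByExpr with a minimum count of 10, TMM factors, group alone, quasi-likelihood F test, Benjamini-Hochberg adjustment over all tested genes). The SE is the log2 fold change over the square root of F. The fit was checked on simulated data in which few genes changed, as many up as down. That check does not cover data in which most genes are called, as here. Alternatives were RLE factors, library size alone, no filter, DESeq2 1.42.0, limma-voom and limma 3.58.1 on log2 of the deposited CPM plus 1, a replicate block, a threshold of 0.01, single libraries left out, and 3 that were chosen after seeing the data: wild types 1 and 2 left out, these and mutant 1 left out, and an erythroid covariate. Isozyme ratios used exact two-sided permutation tests (scipy 1.17.1). Exon lengths and near-identical copies (BLAST 2.17.0) came from GENCODE M21, and promoters from RefSeq's GRCm38.p6 annotation.

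The 34 genes and all lists were chosen with earlier results of these data known. Named genes are the 34 genes, Brca1 and, of each neighbouring list, up to 4 called genes with the smallest p, of which 1 is not reported here. Of marker lists, only sums and counts are given. Depth ran from 26889712 to 63612532 counts per library. Counting error is small beside the spread between spleens except where counts are few, such as those of Fbp1 in the wild types (1 to 5).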

Additional observations from a re-analysis of the deposited data

Results flagged for a closer look

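Among the 34 gene levels and 11 ratios, 3 wild-type levels stood apart from the other 3 wild types by Dixon's test at the 95% level, where chance alone flags about 1 group in 20. Hk3 was at 28.5 CPM in wild type 3 against 37.9 to 38.2 CPM in the other wild types (gap over range 0.966). Eno2 was at 4.14 CPM in wild type 3 against 2.94 to 3.04 CPM (0.923). Rpe was at 47.1 CPM in wild type 4 against 37.8 to 39.1 CPM (0.861). The 3 mutants are too few for this test.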

How the results depend on the processing

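Of the 21 called genes, 11 (9 higher and 2 lower) stayed called in the same direction under all 17 alternative fits per gene, and no called gene changed sign. The threshold of 0.01 is not among these fits, and Pfkm does not pass it. The 11 are Pfkm, Tpi1, Gapdh, Pgk1, Pkm, Ldha, Ldhb, Pdha1, Tkt, Pfkfb3 and Eno2. For the other called genes, the losses named with each gene are not always all of them. Higher and lower counts were 13 and 6 with library size alone, 19 and 4 with RLE factors, 21 and 5 with DESeq2, 15 and 5 with limma-voom, 16 and 5 on the deposited CPM, 11 and 2 at an adjusted p under 0.01, and 11 and 2 without wild types 1 and 2. Leaving out single libraries gave 14 to 22 higher and 3 to 5 lower genes. Over all tested genes, 4334 were higher and 4390 lower in the main fit. These counts were 3153 and 5129 with library size alone, and 4462 and 4277 with RLE factors. For DESeq2, limma-voom, the deposited CPM, the 0.01 threshold and single libraries left out, counts over all genes are not given here. With library size alone, 11 genes instead of 18 had all mutants above all wild types, without a share over all genes to set beside it.

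The replicate numbers did not pair the spleens: deviations of same-numbered spleens correlated at 0.042, -0.186 and 0.101, and only number 3 had a mutant whose closest wild type bore its own number. With the numbers as a block, 12 genes were higher and 3 lower, and counts over all genes in that fit are not given here.

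Signs turned for 4 genes that did not pass and for 1 ratio, and the cause was not tested. Slc2a3 (0.03) became -0.24 with library size alone, -0.02 with limma-voom, -0.01 on the deposited CPM, -0.02 with the replicate block, -0.02 without wild types 1 and 2, and -0.25 to 0.18 without single libraries (negative without mutant 3 and, at -0.01, wild type 2). Pfkp (0.10) became -0.16, -0.00 and -0.02 with library size alone, limma-voom and the block, and -0.23 (without mutant 3) to 0.46 without single libraries. Eno3 (-0.20) ranged from -0.75 to 0.07 without single libraries, positive without mutant 1 (0.06) and mutant 3. Taldo1 (0.11) became -0.12 with library size alone, -0.03 with the block, and -0.06 (mutant 1) to 0.23 without single libraries, with -0.01 without wild type 4. Hk2 to Hk1 ranged from -1.21 to 0.42, the latter without mutant 1.

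With 3 against 4 spleens, single-gene exact tests cannot pass 0.05, and 11 of the 13 genes that did not pass were called under at least 1 alternative. Counting strand and multiply mapped reads limit Gapdh, Eno1, Hk1 and the other genes with copies or antisense partners.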
